A study of Mus musculus with 24 samples.

Results

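The genes of oxidative phosphorylation were followed in HL-1 cells, a beating line derived from mouse atrial cardiomyocytes, in which MuRF1 was knocked down and the cells were stretched. MuRF1 is a muscle ubiquitin ligase of the sarcomere, encoded by Trim63. Members were every row of the estimated count table whose symbol begins with Nduf and 1 of the letters a, b, c, s or v, with Uqcr, with Cox4 to Cox8, with Atp5 or with mt-, together with Sdha, Sdhb, Sdhc and Sdhd. This rule took 104 of 20351 genes, of which 91 are nuclear and 13 are encoded by mitochondrial DNA. By complex, 51 belong to complex I, 4 to complex II, 9 to complex III, 22 to complex IV and 18 to complex V. Low counts kept the complex IV isoform genes Cox4i2 and Cox6b2 out of the test, so that 89 nuclear and all 13 mitochondrial members were tested among 14411 genes.

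The respiratory chain passes electrons from NADH through complex I, or from succinate through complex II, to ubiquinone, then through complex III and cytochrome c to complex IV, where oxygen is reduced. Complexes I, III and IV pump protons, and complex V uses the resulting gradient to make ATP. Complex II is built from nuclear genes alone, while the other complexes combine nuclear subunits with subunits encoded in mitochondrial DNA. Heart muscle is rich in these complexes and expresses muscle isoforms of several complex IV subunits.

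All groups were HL-1 cells that had been given an adenovirus at an MOI (infectious units per cell) of 30. The control groups received a scrambled hairpin RNA and the knockdown groups a hairpin against MuRF1, a transient knockdown in a single line. After 48 h the cells were left unstretched or stretched by 15% at 1 Hz for 60 min, with a stretch that the labels call uniaxial in 1 place and biaxial in another, and RNA was taken directly afterwards. The 4 groups are thus unstretched control, stretched control, unstretched knockdown and stretched knockdown, with 6 libraries each. The labels do not state that replicates were separate cultures, so p-values measure only the spread between these libraries, which may be technical. The library codes carry a number that is constant within each group and a letter, a for replicates 1 to 3 and b for replicates 4 to 6. If the number marks a batch, batch and group cannot be told apart.

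Libraries held 23.6 to 54.8 M estimated counts, and at least 37.7 M in all but stretched control replicate 5. Trim63 itself was at 54.2 to 57.4 CPM (counts per M of the scaled library size) in unstretched knockdown against 536 to 707 in unstretched control libraries, and at 60 to 83.5 against 687 to 882 in the stretched groups. Both ranges are far apart, and both differences gave an exact two-sided permutation p of 0.00216 (n = 6 each), with log2 fold changes of -3.52 (SE 0.0804) and -3.51 (SE 0.08). Of 14 cardiomyocyte markers 13 were tested, and Nppa and Sln stayed below 1 CPM in every library. The markers' sum was 2680 to 2960 CPM in unstretched control and 1354 to 1467 in unstretched knockdown libraries. The abundant Tnnt2 carried much of it (mean 1250 against 513 CPM), while the cardiac transcription factor gene Nkx2-5 stood at 74.4 against 88.7 CPM. Among markers of other cells, the sum of 8 fibroblast markers was 244 to 250 CPM against 79.9 to 97.4, and that of 5 smooth muscle markers 2459 to 2687 against 1696 to 1842. Acta2 made up most of the smooth muscle sum (mean 2280 against 1523 CPM), while Cnn1 was at 16.8 against 17.7 and Myh11 at 0.719 against 0.854 CPM. In the stretched groups the cardiomyocyte sums were 2630 to 3066 in control and 1516 to 1578 in knockdown libraries, the fibroblast sums 216 to 243 and 95.6 to 101, and the smooth muscle sums 2459 to 2833 and 1821 to 1914. Endothelial, leukocyte and skeletal muscle markers summed to 1.61 to 10.2 CPM in all libraries. These marker levels moved with the knockdown, and their part in the results on oxidative phosphorylation genes was not tested. In such bulk libraries, fewer cells of a type and less RNA per cell cannot be told apart.

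Stretched control replicate 5 stood apart from the other libraries of its group. It was the lowest of the 6 stretched control libraries in 86 of 89 nuclear and 12 of 13 mitochondrial members, against 39.9% of all tested genes. The nuclear members lay at a median log2 difference of -0.48 from the mean of the other 5 libraries, and the mitochondrial members at -1.39. Cytosolic ribosomal protein genes were lowest in it in 76 of 78 cases (median -0.67), and replication-dependent histone genes were highest in it in 25 of 30 (median 2.48). The counts, medians and sums of the members in the stretched groups are therefore given with and without this library. Other values of the stretched groups include it unless stated.

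In unstretched control cells the most abundant members were mitochondrial transcripts, but not all 13 stood above the nuclear members. Per kilobase of transcript, mt-Co1, the catalytic subunit of complex IV, stood at 6598 ± 591 CPM per kb (SD, n = 6), followed by mt-Cytb of complex III at 3594 ± 349 and mt-Atp6 of complex V at 3355 ± 638. The ranges of mt-Cytb (3186 to 3938) and mt-Atp6 (2675 to 4231) overlapped, so that their order is not resolved, while mt-Co1 (5846 to 7217) lay above both. Among nuclear members the order was led by Atp5b, the catalytic beta subunit of ATP synthase, at 1034 ± 19.6 CPM per kb, then Cox8a at 924 ± 27.8 and Cox4i1 at 806 ± 23.1, with ranges that did not overlap between these 3. The mitochondrial mt-Atp8 (740), mt-Co2 (457) and mt-Nd3 (365 CPM per kb) had lower means than these 3 nuclear members, though the range of mt-Atp8 (431 to 1308) included theirs. Levels per kilobase divide by the annotated length, and mt-Atp8 is short and shares bases with mt-Atp6. The place of mt-Atp8 in this order is therefore uncertain. The 3 lowest nuclear members were the isoform genes Ndufa4l2 at 0.335 ± 0.145, Cox6b2 at 0.213 ± 0.126 and Cox4i2 at 0.127 ± 0.0808 CPM per kb, within each other's spread. The 13 mitochondrial members summed to 29484 ± 3475 CPM and the 91 nuclear members to 14784 ± 349 CPM in these libraries.

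Neighbouring mitochondrial genes share bases, so that reads from the shared stretch fit both. The longest such stretch among the members joins mt-Atp8 and mt-Atp6, the first being a short gene of 204 bases. It is shown because mt-Atp8 had 1 of the widest spreads among the members. Whether the shared bases bear on that spread was not tested. The stretch is chrM:7915-7981 on the plus strand, with the 43 bases common to both genes (chrM:7927-7969) in capitals, from the GENCODE transcripts on GRCm38.
mt-Atp8 and mt-Atp6: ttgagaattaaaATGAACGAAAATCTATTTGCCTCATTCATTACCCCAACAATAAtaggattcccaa
The genes mt-Nd4l and mt-Nd4 share 7 bases, and mt-Nd5 and mt-Nd6 share 14 on opposite strands. mt-Co3 shares 1 base with mt-Atp6 and varied widely too, from 292 to 1344 CPM in stretched knockdown libraries. The authors' counts were estimated with kallisto 0.44.0. The share of reads from common bases that it assigned to each gene is not given in the sources used here. Nor is its handling of reads shared with nuclear copies of mitochondrial DNA and with pseudogenes of nuclear members. Single values of these genes are uncertain to that extent. The libraries were made by capture of poly(A) RNA, and how well mitochondrial transcripts were captured was not tested.

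Most nuclear members were lower in MuRF1 knockdown than in control libraries. Without stretch, 63 of 89 tested nuclear members fell and 3 rose (edgeR quasi-likelihood test, Benjamini-Hochberg adjusted p below 0.05), where 29.7% of all tested genes fell and 28% rose. The median log2 fold change of the nuclear members was -0.25, against 0.01 over all tested genes. With stretch, 61 fell and 2 rose, beside 26.9% and 25.1% of all genes, and the median was -0.23 against 0.00. The comparisons share no library, but they share the fit, its estimate of the spread and the hairpins, so they are not independent repeats. They had 59 falling members in common, out of 63 and of 61, and for all genes 3560 out of 4285 and of 3875. In every unstretched knockdown library 48 of the 89 nuclear members were below every unstretched control library. This pattern was shown by 21.5% of all tested genes. Cox6a2 alone was above in every library, a pattern shown by 2350 of all 14411 tested genes. The observation on Cox6a2 was made after its values were seen.

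Summed over the 91 genes, nuclear members stood at 14469 to 15401 CPM in unstretched control and at 11067 to 12743 in unstretched knockdown libraries, a mean 20.1% lower (11806 ± 635 against 14784 ± 349 CPM, SD, n = 6). These ranges did not overlap. In the stretched groups the sum was 14583 to 15205 CPM in 5 control libraries and 11431 in replicate 5, against 11464 to 11771 in knockdown libraries. The knockdown mean was 19.4% lower, or 22.6% lower without replicate 5. The plot of the sums by library shows the same values.

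**Figure D1:**
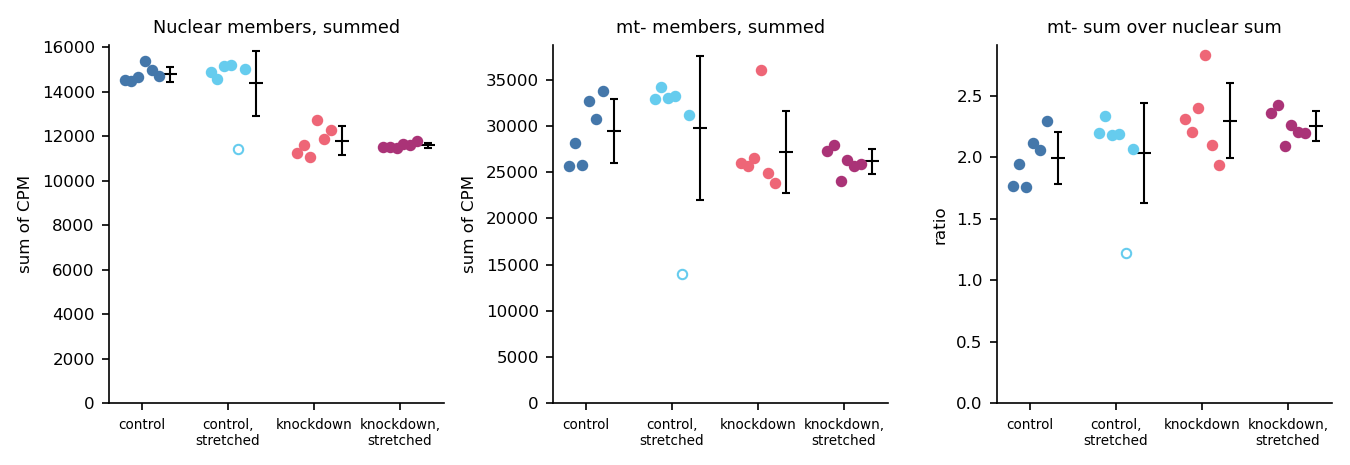
Summed CPM of the nuclear members and of the mitochondrial (mt-) members, and the ratio of the sums, in each of the 24 libraries by group; each point is a library and the open point is stretched control replicate 5. Nuclear sums of the unstretched knockdown libraries (11067 to 12743 CPM) lie below those of the unstretched control libraries (14469 to 15401 CPM), while the mitochondrial sums overlap.

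By complex, without stretch the falls of nuclear genes numbered 26 of 44 in complex I with 2 rises (median log2 fold change -0.18), 4 of 4 in complex II (-0.33), 6 of 8 in complex III (-0.26), 14 of 17 in complex IV with 1 rise (-0.42) and 13 of 16 in complex V (-0.29). With stretch they were 24 of 44 with 2 rises (-0.17), 4 of 4 (-0.32), 6 of 8 (-0.25), 14 of 17 (-0.40) and 13 of 16 (-0.30). As sums of CPM, nuclear complex I genes were 12.1% lower in unstretched knockdown than in unstretched control cells. The sums were 19.6% lower for complex II, 15.4% for complex III, 23.9% for complex IV and 24.4% for complex V. The differences between complexes were described only and were not tested.

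**Figure D2:**
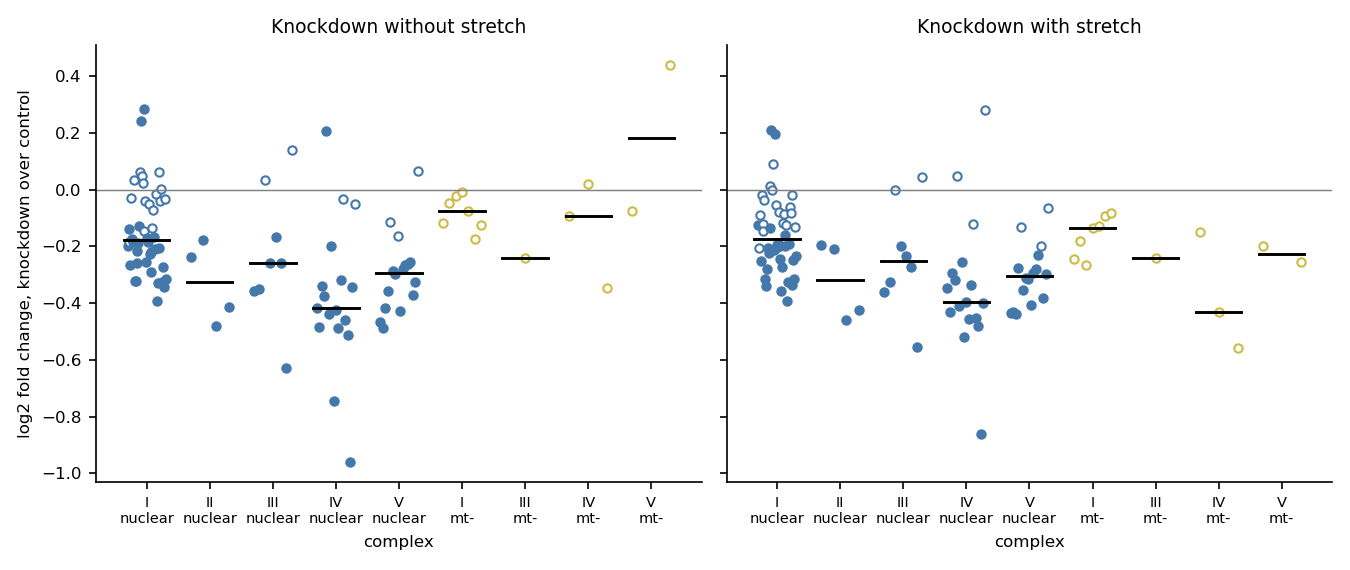
Log2 fold change of each tested member by complex for the knockdown comparison without and with stretch; nuclear members are blue and mitochondrial members yellow, filled points have an adjusted p below 0.05, and the black line is the median of its column. Medians of the nuclear genes without stretch run from -0.18 in complex I to -0.42 in complex IV.

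In complex I, the NADH dehydrogenase, core subunits carry out electron transfer. Of 7 nuclear core subunits 6 fell in each comparison, with medians of -0.33 without and -0.32 with stretch, and 19 of 29 accessory subunits fell without stretch (median -0.18) and 16 with stretch (median -0.19). Without stretched control replicate 5, 7 core and 28 accessory subunits fell with stretch. The difference between the kinds of subunits was not tested. Ndufs1 (chr1:63143596-63176833, minus strand), the iron-sulfur subunit of the module that takes electrons from NADH, stood at 189, 199 and 204 CPM (lowest, median and highest) in unstretched control and at 144, 148 and 172 in unstretched knockdown libraries. Its groups did not overlap, and its log2 fold change was -0.39 (SE 0.0372, adjusted p = 5.76e-10, edgeR). The core subunit outside this pattern was Ndufv2, with -0.03 without stretch (SE 0.0606, adjusted p = 0.676) and -0.13 with stretch (SE 0.0608, adjusted p = 0.076). It is named here, like other members outside the naming rule below, after its values were seen.

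Assembly factors of complex I, which help build it and are no part of the finished enzyme, had counts in both directions. Of 8 tested, 2 rose and 1 fell without stretch, beside 28% and 29.7% of all genes, and 2 rose and 2 fell with stretch, beside 25.1% and 26.9%. The medians were 0.04 and 0.00. Without stretched control replicate 5, 2 rose and 3 fell with stretch. Their difference from the subunits was not tested. The risers were Ndufaf6 and Ndufaf2 in both comparisons. Ndufaf6 was at 7.87, 8.36 and 9.25 CPM (lowest, median, highest) in unstretched control and 8.72, 10.1 and 12.2 in unstretched knockdown libraries. These ranges overlapped at their edges, at a log2 difference of 0.28 (SE 0.0681, adjusted p = 8.14e-04). Ndufaf2, an assembly chaperone, gave 17.7, 18.8 and 20.6 against 20.6, 21.4 and 27.0 CPM. Its knockdown libraries began where the control libraries ended (0.24, SE 0.0799, adjusted p = 0.0119). With stretch the log2 fold changes were 0.20 for Ndufaf6 (adjusted p = 0.0191) and 0.21 for Ndufaf2 (adjusted p = 0.0308). Atp5sl, whose symbol recalls complex V but whose protein takes part in complex I assembly, fell by 0.20 on the log2 scale without stretch (adjusted p = 4.38e-05), and Ndufaf5 fell beside it in the stretched comparison only (-0.21, adjusted p = 0.00673). Without stretch Ndufaf5 gave -0.14 (adjusted p = 0.0531).

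All 4 genes of complex II, succinate dehydrogenase, fell in both comparisons. Sdhc (chr1:171127165-171150603, minus strand), a membrane anchor, was at 159, 163 and 168 CPM (lowest, median, highest) in unstretched control and at 109, 118 and 124 in unstretched knockdown libraries. No library of 1 group entered the range of the other (log2 fold change -0.48, SE 0.0367, adjusted p = 7.93e-12). The second anchor, Sdhd, gave -0.41 (SE 0.0407, adjusted p = 1.33e-09). The catalytic flavoprotein gene Sdha gave -0.24 (SE 0.0222, adjusted p = 4.18e-10) and the iron-sulfur subunit gene Sdhb -0.18 (SE 0.0416, adjusted p = 5.89e-04). With stretch the values were -0.46 for Sdhc, -0.43 for Sdhd, -0.20 for Sdha and -0.21 for Sdhb, with adjusted p values from 2.55e-11 to 1.26e-04. Without replicate 5 of the stretched control they were -0.49, -0.46, -0.21 and -0.26 in the same order.

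In complex III, the hinge protein gene Uqcrh (chr4:116066965-116075071, minus strand) fell furthest. It was at 192, 205 and 218 CPM (lowest, median, highest) in unstretched control and at 118, 129 and 158 in unstretched knockdown libraries. The groups were separate, at a log2 difference of -0.63 (SE 0.0947, adjusted p = 4.24e-06). In the stretched groups it was at 206 to 221 CPM in 5 control libraries, at 124 in replicate 5 and at 126 to 139 in knockdown libraries, for a log2 fold change of -0.56 (adjusted p = 2.62e-05) or -0.66 without replicate 5. The core protein gene Uqcrc1 was at 139 to 152 CPM in unstretched knockdown against 169 to 179 in unstretched control libraries (-0.26, SE 0.0265, adjusted p = 2.5e-09). With all libraries, the complex III members that missed the threshold in both comparisons were Uqcrb and Uqcrq. In the stretched groups Uqcrb was at 98.2 to 105 CPM in 5 control libraries, at 53.4 in replicate 5 and at 90.4 to 96.2 in knockdown libraries. Uqcrq, a small subunit, was at 118 to 142 CPM in unstretched knockdown and 108 to 119 in unstretched control libraries. That is a log2 difference of 0.14 (SE 0.0632, adjusted p = 0.0577), in the other direction from its complex in the unstretched comparison. In the stretched groups Uqcrq was at 114 to 120 CPM in 5 control libraries, at 80.6 in replicate 5 and at 113 to 118 in knockdown libraries.

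Complex IV, cytochrome c oxidase, held the 2 largest falls of all members without stretch, Cox8b and Cox7a1, both at low levels, beside falls of its abundant subunits. Cox8a (chr19:7215153-7217616, minus strand) was at 495, 504 and 537 CPM (lowest, median, highest) in unstretched control and at 329, 356 and 393 in unstretched knockdown libraries. Its groups did not meet (-0.51, SE 0.0570, adjusted p = 1.67e-08). Cox5a gave -0.49, Cox7a2l, a factor that joins complexes III and IV, -0.49, Cox7c -0.46, Cox6b1 -0.44, and Cox4i1, the subunit where the enzyme is regulated by ATP, -0.42. Ndufa4, a subunit now assigned to complex IV despite its symbol, gave -0.34 (adjusted p = 2.43e-04). With stretch these 7 genes had log2 fold changes from -0.48 to -0.35, all past the threshold.

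Muscle isoforms of complex IV subunits did not move as a set. Cox7a1 (chr7:30184144-30186078, plus strand), the heart and muscle form, was at 9.69, 11.3 and 11.5 CPM (lowest, median, highest) in unstretched control and at 5.71, 6.59 and 7.81 in unstretched knockdown libraries. No library overlapped between these groups, and its log2 fold change was -0.75 (SE 0.0816, adjusted p = 9.75e-09), against -0.42 for its common counterpart Cox7a2. Cox8b, the heart and muscle counterpart of Cox8a, was near 1 CPM and had -0.96 (SE 0.157, adjusted p = 7.71e-06), from 1.26 to 1.59 CPM in control to 0.506 to 0.912 in knockdown libraries. Cox6a2 (chr7:128205435-128206387, minus strand), the heart and muscle counterpart of Cox6a1, was at 60.3, 68.9 and 71.1 CPM in unstretched control and 73, 75.6 and 81.8 in unstretched knockdown libraries. Every knockdown library was above every control library (0.21, SE 0.064, adjusted p = 0.00705), while Cox6a1 had -0.38 (adjusted p = 9.76e-08). With stretch Cox6a2 gave 0.05 (adjusted p = 0.556), Cox6a1 -0.32, Cox7a1 -0.52, Cox7a2 -0.40 and Cox8b -0.86. Without replicate 5 of the stretched control these were -0.01 for Cox6a2, -0.37 for Cox6a1, -0.58 for Cox7a1, -0.47 for Cox7a2 and -0.94 for Cox8b.

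As a share of both isoforms per kilobase, Cox6a2 made up 11.8% ± 0.829 of Cox6a1 plus Cox6a2 in unstretched control and 16.7% ± 0.741 in unstretched knockdown cells (SD, n = 6), and 12.5% ± 0.992 and 15.6% ± 0.909 in the stretched groups. The share of Cox7a1 in Cox7a2 plus Cox7a1 went the other way, from 8.42% ± 0.543 to 6.85% ± 0.427 without stretch and from 8.18% ± 0.247 to 7.59% ± 0.543 with stretch. Cox8b made up 0.421% ± 0.0421 and 0.309% ± 0.0764 of its pair in the unstretched groups, and Cox7b2 2.78% ± 0.292 and 3.37% ± 0.182. The shares of Cox4i2, Cox6b2 and Ndufa4l2, at 0.016% to 0.0663% in the unstretched groups, rest on at most 22.4 estimated counts per library and are not read further.

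**Figure D3:**
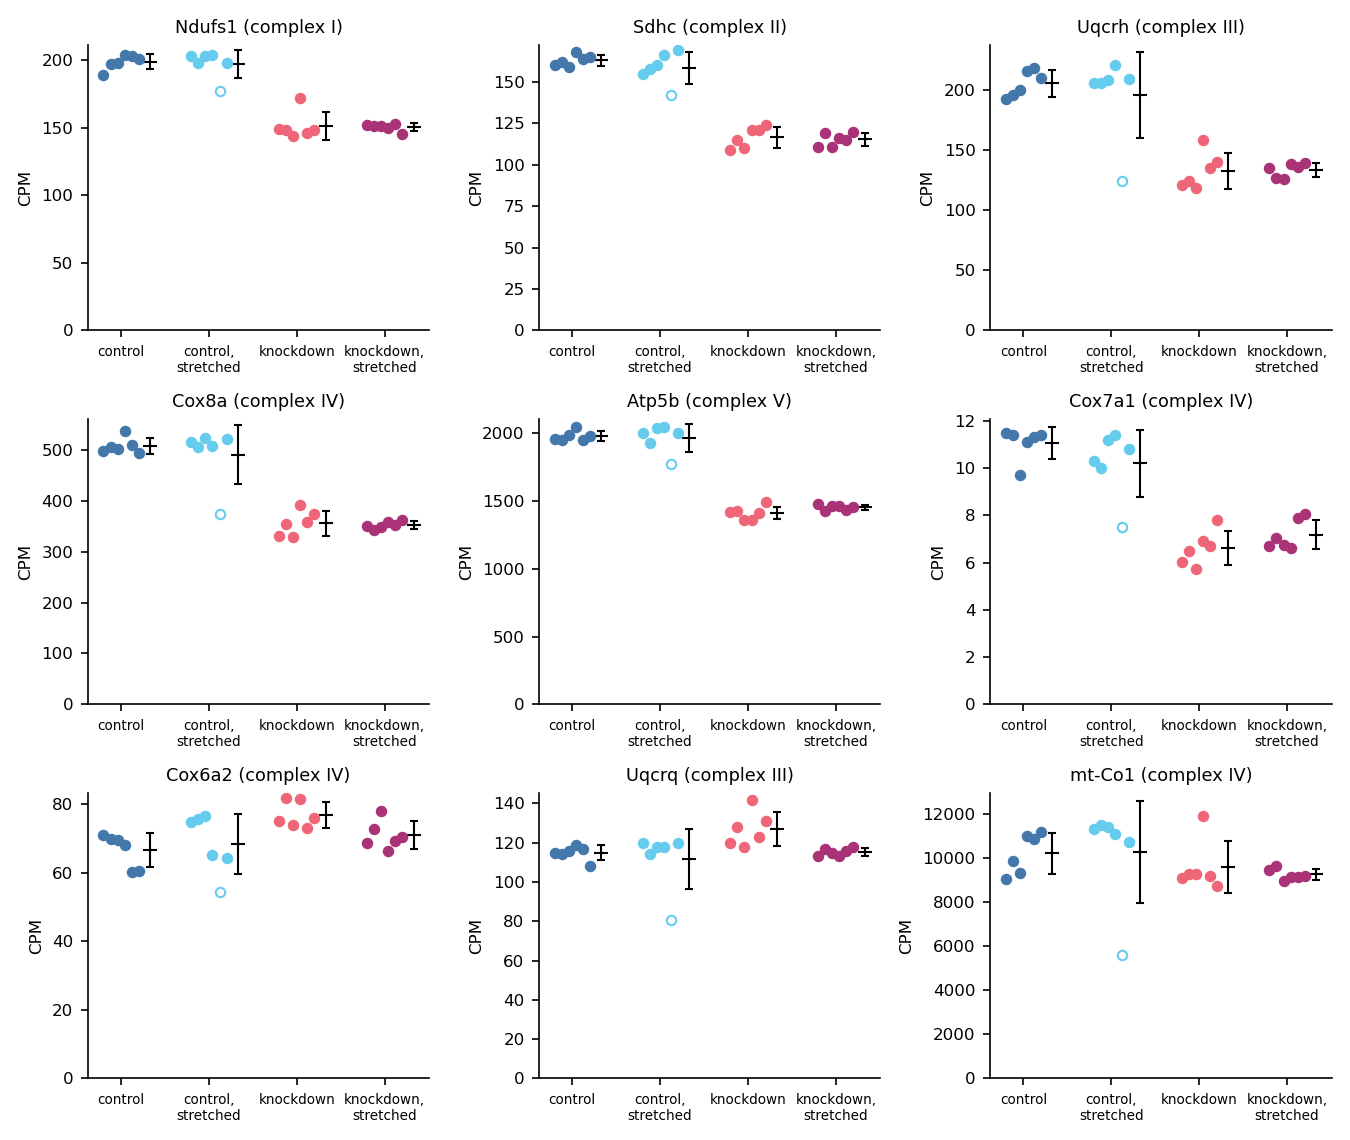
CPM of 9 members in each library by group, with bars for the mean ± SD of 6 libraries and an open point for stretched control replicate 5; each panel has its own linear axis. Ndufs1, Sdhc, Uqcrh, Cox8a, Atp5b and Cox7a1 are lower in unstretched knockdown than in any unstretched control library, Cox6a2 is higher in each, and mt-Co1 overlaps.

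In complex V, the ATP synthase, the subunits of the catalytic head had the smallest adjusted p values of all members. Atp5b (chr10:128083273-128090391, plus strand) was at 1954, 1966 and 2050 CPM (lowest, median, highest) in unstretched control and 1364, 1414 and 1490 in unstretched knockdown libraries. The groups were well apart, a fall by 28.7% (log2 fold change -0.49, SE 0.0301, adjusted p = 8.51e-14). Atp5a1, the alpha subunit, was at 849, 857 and 894 against 604, 626 and 645 CPM, also without overlap (-0.47, SE 0.0244, adjusted p = 2.39e-15). The c-ring gene Atp5g3 gave -0.43 and the gamma subunit gene Atp5c1, which forms the central stalk, -0.42. The c-ring gene Atp5g2 passed only with stretch (-0.31, SE 0.116, adjusted p = 0.0263, against -0.16, adjusted p = 0.242) and the small membrane subunit gene Atp5k only without stretch (-0.26, SE 0.101, adjusted p = 0.0345, against -0.20, adjusted p = 0.107). Accessory subunits of complex I that passed only without stretch, with all libraries, were Ndufa2, Ndufa10 and Ndufa13. Without stretched control replicate 5 almost all accessory subunits fell with stretch. In the other 5 stretched control libraries Atp5k (89.7 to 97 CPM), Ndufa2 (71.9 to 79.7) and Ndufa13 (139 to 148) lay above every stretched knockdown library, while Ndufa10 overlapped. Neither the accessory subunits named here nor Atp5g2 and Atp5k passed the interaction test.

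With all libraries, the 21 nuclear members that passed in neither comparison were in large part from complex I. They were the accessory subunits Ndufa1, Ndufa3, Ndufa12, Ndufb3, Ndufb7, Ndufb8, Ndufc2, Ndufs4, Ndufs5 and Ndufs6, the core subunit Ndufv2, the assembly factors Ndufaf1, Ndufaf3, Ndufaf4 and Ndufaf7, and outside complex I Uqcrb, Uqcrq, Cox7b2, Ndufa4l2, Atp5e and Atp5s. Without stretched control replicate 5, 79 of 89 nuclear members fell and 2 rose with stretch, so that most of these 21 passed there. With all libraries the median SE of a nuclear member was 0.0655 on the log2 scale, and differences such as that of Ndufb8 (-0.07, SE 0.048, adjusted p = 0.219) were not detectable with this spread.

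With edgeR on the scaled counts of all libraries, no mitochondrial member passed the threshold in either knockdown comparison. Their medians were -0.08 without stretch (range -0.35 to 0.44) and -0.20 with stretch (range -0.56 to -0.08), and edgeR called 0 of 13 in each, with 0 at an unadjusted p below 0.05. DESeq2 and limma-voom called 0 too, but 7 fell without and 3 with stretch once trends on length and GC content were removed, and 1 fell without stretch when only the unstretched groups were fitted. Single libraries moved the median without stretch, to -0.17 without unstretched knockdown replicate 4, to -0.13 without unstretched control replicate 1, and to -0.03 without replicate 6 of either unstretched group. With stretch limma-voom gave a median of -0.09, and it was -0.12 without stretched control replicate 2. Their median SE was 0.18, wider than the 0.0655 of the nuclear members. mt-Co1 (chrM:5328-6872, plus strand) was at 9032, 10346 and 11150 CPM (lowest, median, highest) in unstretched control and 8713, 9218 and 11910 in unstretched knockdown libraries. These overlapped, and the log2 fold change was -0.09 (95% interval -0.34 to 0.16, adjusted p = 0.541). mt-Cytb (chrM:14145-15288, plus strand), the mitochondrial subunit of complex III, was at 3645, 4159 and 4505 against 3234, 3326 and 4225 CPM. It overlapped through the highest knockdown library, replicate 4, and gave -0.24 (95% interval -0.49 to 0.01, adjusted p = 0.0902). Without stretched control replicate 5, which narrowed the spread shared by all groups, mt-Cytb passed in the unstretched comparison (-0.24, SE 0.059, adjusted p = 0.00108). It was then the sole mitochondrial member to do so, beside 68 falls and 4 rises among nuclear members and 31.3% and 30.1% of all genes. The fourth rise was Uqcrq (0.14, adjusted p = 4.42e-04).

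With stretch the removal of that library changed the count for the mitochondrial members from 0 to 8 of 13, all falls, and that for nuclear members from 61 to 79 falls of 89, with 2 rises in each. The share of all genes that fell was 29.3% without it, and 26.1% rose. The median of the mitochondrial members moved from -0.20 to -0.37 and that of the nuclear members from -0.23 to -0.31. The 8 were mt-Cytb (-0.37, SE 0.0617, adjusted p = 2.21e-05), mt-Co1 (-0.28, SE 0.0640, adjusted p = 8.41e-04), mt-Nd1 (-0.40), mt-Nd2 (-0.35), mt-Nd3 (-0.42), mt-Nd4l (-0.29) and mt-Nd5 (-0.25) of complex I, and mt-Atp6 (-0.40) of complex V. The others were mt-Atp8 (-0.46, SE 0.353), mt-Co2 (-0.53, SE 0.267), mt-Co3 (-0.70, SE 0.374), mt-Nd4 (-0.29, SE 0.121) and mt-Nd6 (-0.23, SE 0.113), with adjusted p values from 0.0519 to 0.281. In CPM, mt-Cytb was at 4201, 4412 and 4508 (lowest, median, highest) in the 5 stretched control libraries, at 2171 in replicate 5, and at 3258, 3411 and 3531 in stretched knockdown libraries. The 5 libraries were all above the knockdown libraries and replicate 5 was below all of them. By complex, nuclear falls without replicate 5 were 38 of 44 in complex I, 4 of 4 in II, 7 of 8 in III, 15 of 17 in IV and 15 of 16 in V, with medians of -0.24, -0.36, -0.30, -0.47 and -0.37.

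**Figure D4:**
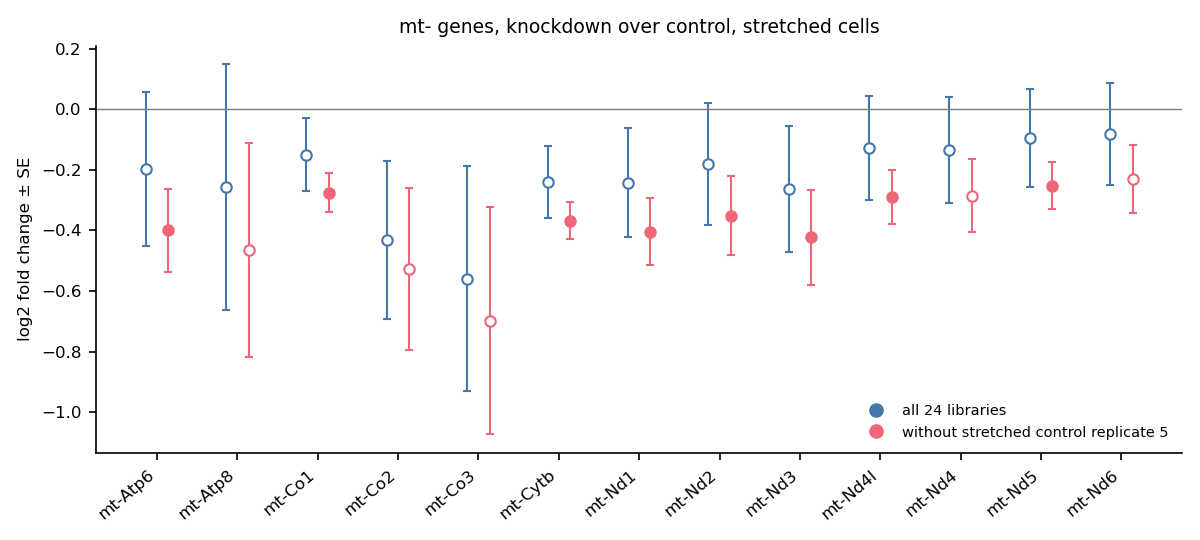
Log2 fold change ± SE of the 13 mitochondrial members, stretched knockdown against stretched control, with all libraries and without stretched control replicate 5; filled points have an adjusted p below 0.05. With all libraries no point is filled and the range is -0.56 to -0.08, and without that library 8 are filled.

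The overlap of libraries followed the same pattern. In every stretched knockdown library 17 of 89 nuclear members were below every stretched control library, beside 17.3% of all genes. Without replicate 5 this held for 74 nuclear and 9 of 13 mitochondrial members, beside 24.5%.

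The sums of the mitochondrial members were set beside those of the nuclear members, and the difference between them was not tested. The mitochondrial sum was 25674 to 33769 CPM in unstretched control and 23877 to 36029 in unstretched knockdown libraries, 7.81% lower in the mean and overlapping, with knockdown replicate 4 at 36029 and the other 5 at or below 26557. In the stretched groups it was 12% lower (26160 ± 1378 against 29738 ± 7780 CPM), or 20.5% lower without replicate 5 (32889 ± 1103, n = 5). The ratio of mitochondrial to nuclear sum was 1.99 ± 0.21 in unstretched control and 2.3 ± 0.305 in unstretched knockdown cells, 15.4% higher with overlapping ranges of 1.76 to 2.3 and 1.94 to 2.83. The 2.83 was that of unstretched knockdown replicate 4, and the other 5 libraries of its group were at 2.4 or below. With stretch the ratio was 2.04 ± 0.407 and 2.26 ± 0.122, 10.9% higher, and 2.71% higher without stretched control replicate 5 (2.2 ± 0.0959). Values within the code letters differed. Without stretch the mitochondrial sum of knockdown cells was 1.76% lower within letter a and 12.8% lower within letter b, and the nuclear sum 22.2% and 18.1% lower. With stretch the mitochondrial sum was 20.9% lower within letter a and 0.768% lower within letter b (19.5% without replicate 5), and the nuclear sum 22.7% and 15.9% lower (22.7% without replicate 5).

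Scaling and transcript length bear on these counts. Knockdown libraries had scaling factors of 1.02 to 1.06. Unstretched control libraries had 0.94 to 0.97 and stretched control libraries 0.94 to 1.04, the highest of these in replicate 5. Without such factors, on library totals alone, the median of all genes shifted to 0.139 without and 0.117 with stretch. On that scale 45 nuclear members fell and 10 rose without stretch, beside 18.3% and 47.3% of all genes, and 47 fell and 6 rose with stretch, beside 16.7% and 44%. The nuclear median was -0.12 in both, and the mitochondrial median 0.05 without and -0.07 with stretch. As a share of library totals, the nuclear sum was 12.6% lower in knockdown cells in both comparisons, or 15% lower with stretch without stretched control replicate 5. The mitochondrial share was 0.874% higher without and 4.17% lower with stretch, or 12.7% lower without that library. Relative to the median of all genes, the nuclear median without stretch was -0.26 on both scales and the mitochondrial median -0.08 on both. With stretch they were -0.23 and -0.18 on library totals and -0.24 and -0.20 with the factors. Leaving out the factors shifts all genes of a comparison by nearly the same amount. These relative values therefore agree by construction and are no test of the scaling. Nuclear members are short, with a median transcript of 755 bases, and mitochondrial members 784, against 2724 over all genes with a known length. The 44 shorter nuclear members had 31 falls and the 45 longer ones 32 without stretch, while 28.2% of the other genes of 457 to 1998 bases fell. After trends on length and GC content were removed within each library, 66 nuclear members fell without and 62 with stretch, beside 31.9% and 29.4% of all genes, and 7 and 3 mitochondrial members fell, with medians of -0.31 and -0.20.

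Few members differed between cells stretched for 60 min and unstretched cells. In control cells Uqcrc1 was the single member to pass, with 155, 165 and 167 CPM (lowest, median, highest) in stretched and 169, 173 and 179 in unstretched libraries. Every stretched library was below every unstretched one, by a log2 difference of -0.09 (SE 0.0264, adjusted p = 0.0487). This count of 1 fall and 0 rises among 102 members stood beside 3.39% falls and 2.55% rises of all genes. At an unadjusted p below 0.05 there were 3 members. Without replicate 5 Uqcrc1 had an adjusted p of 0.0540 and no member passed, beside 8.3% and 5.68% of all genes, with 2 members at an unadjusted p below 0.05. The median of the mitochondrial members was 0.03 with and 0.19 without that library, and their sum was 0.863% and 11.5% higher than in unstretched control cells. That difference lay within letter a, where the stretched libraries (32858 to 34163 CPM) were 25.6% above the unstretched ones (25674 to 28187 CPM), whereas within letter b it was 0.703% lower without replicate 5 and 19.4% lower with it.

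In knockdown cells stretch left all members short of the threshold with edgeR, beside 3.61% falls and 5.32% rises of all genes, and 6 of 102 had an unadjusted p below 0.05. DESeq2 called 1 and limma-voom 0. Without stretched control replicate 5 the narrower shared spread gave 5 falls, beside 5.86% of all genes. They were Uqcrq (-0.14, SE 0.0326, adjusted p = 0.00581), Ndufaf5 (-0.18), Ndufa3 (-0.15), Ndufaf3 (-0.16) and Ndufv2 (-0.13). With all libraries Ndufaf5 had the smallest p of the members (-0.18, SE 0.0638, adjusted p = 0.0824).

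No member passed the interaction, which tests whether the stretch response differed between knockdown and control cells, or equally whether the knockdown difference depended on stretch. Over all genes 0.0208% passed. With edgeR 0 members had an unadjusted p below 0.05, DESeq2 and limma-voom called 0, and the smallest adjusted p was 0.558, for Cox7a1 (0.23, SE 0.115). Without replicate 5 the count was 0 again, beside 0.753% of all genes, with 13 members at an unadjusted p below 0.05 and the smallest adjusted p at 0.0715 for Uqcrq (-0.17, SE 0.0473). The second in order, Cox6a2, had -0.21 (SE 0.0737, adjusted p = 0.15).

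**Figure D5:**
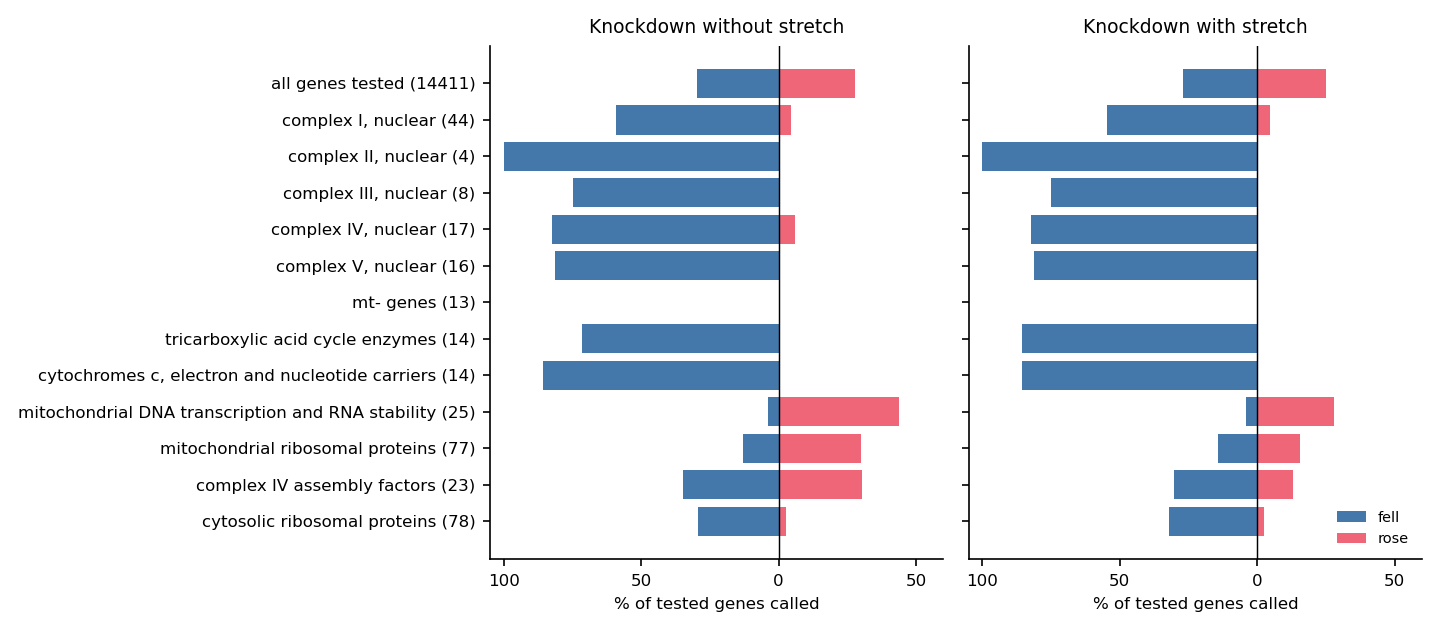
Percent of tested genes that fell (blue, to the left) or rose (red, to the right) at an adjusted p below 0.05, for nuclear members by complex, mitochondrial members, related lists and all genes, in the knockdown comparison without and with stretch; the number tested is in parentheses. For all genes 29.7% fell without stretch, while 63 of 89 nuclear members did.

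Genes that work beside the respiratory chain were read from lists outside the rule. Their counts stand beside 29.7% falls and 28% rises of all genes without stretch, 26.9% and 25.1% with stretch, and 29.3% and 26.1% with stretch but without stretched control replicate 5, and no list was tested against other genes. Of 14 enzymes of the tricarboxylic acid cycle, which feeds the chain with NADH and succinate, 10 fell without and 12 with stretch (13 without that library) and 0 rose. Idh2, the mitochondrial isocitrate dehydrogenase that uses NADP, gave -0.57 and -0.53. Of 14 tested cytochrome c, carrier and channel genes 12 fell in each comparison (13 with stretch without that library), with Vdac1 at -0.51 and -0.45 and Vdac2 at -0.47 and -0.45. Cyc1, the cytochrome subunit of complex III that the rule does not match, gave -0.29 (SE 0.0256) and -0.27 (SE 0.0256). Mitochondrial ribosomal proteins had 23 rises (29.9%) and 10 falls (13%) of 77 without stretch, the share of rises being near that of all genes. With stretch they had 12 rises and 11 falls, or 9 and 19 without that library, and Mrps6 gave -0.87 and -0.67. Of 23 complex IV assembly factors 7 rose and 8 fell without stretch and 3 rose and 7 fell with stretch (3 and 9 without that library). Among them Cox20, needed for the maturation of mt-Co2, gave -0.89 and -0.85, and Cox18 0.32 and 0.33. Cytosolic ribosomal proteins, short transcripts of another function, had 23 (29.5%) and 25 (32.1%) falls of 78, shares near those of all genes, and 2 rises in each. Without stretched control replicate 5 the stretched comparison had 67 falls and 2 rises, and the comparison without stretch, where removal narrowed the shared spread, 45 falls and 6 rises, with 33 rises and 13 falls of the mitochondrial ribosomal proteins, beside 31.3% falls and 30.1% rises of all genes.

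The smaller assembly lists were mixed. Complex I assembly factors outside the rule had 3 rises and 2 falls of 9 without stretch and 0 rises and 5 falls with stretch, the latter also without stretched control replicate 5. Complex II factors had 1 rise and 0 falls of 4, then 1 rise and 2 falls (0 and 2 without that library). Complex III factors had 1 rise and 1 fall of 6 in both, and 1 rise and 2 falls with stretch without it. Other complex V genes had 3 rises and 2 falls of 5, then 2 rises and 2 falls with and without that library. Histone genes had 2 rises and 3 falls of 30 without stretch, or 11 and 3 without that library. With stretch they had 0 rises and 10 falls (33.3%, beside 26.9% of all genes), and 4 rises and 6 falls without stretched control replicate 5, in which they were mostly highest. Their sum was 27.6% lower in stretched knockdown than in stretched control cells, and 16.5% lower without that library.

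Regulators were read against the same shares of all genes. For transcription and RNA stability in mitochondria, 11 of 25 genes rose (44%) and 1 fell (4%) without stretch. With stretch 7 rose (28%, near the 25.1% of all genes) and 1 fell, or 8 and 4 without stretched control replicate 5. Tfam, the packaging and transcription factor of mitochondrial DNA, was at 48.4 ± 1.94 CPM in unstretched control and 58.7 ± 2.97 in unstretched knockdown cells (SD, n = 6, log2 fold change 0.28, SE 0.0364, adjusted p = 2.18e-07), and at 51.4 ± 2.86 and 58.4 ± 0.964 in the stretched groups (0.18). Pnpt1, the exonuclease of mitochondrial RNA, gave 0.47 and 0.31. Of 19 nuclear regulators 4 rose and 9 fell without stretch. With stretch 5 rose and 5 fell (26.3% each, near all genes), or 4 and 6 without that library. The smallest adjusted p values of this mixed list were those of Esrra and Esrrg, both falls. They encode estrogen-related receptors, nuclear factors that bind many of these promoters. In the other direction, Gabpb2 was at 109 ± 3.93 CPM in unstretched control and 125 ± 7.75 in unstretched knockdown cells, and at 120 ± 4.24 and 133 ± 2.77 in the stretched groups. The part of any regulator in the falls of the members was not tested. Esrra was at 72.6 ± 2.97 CPM in unstretched control and 37.7 ± 2.24 in unstretched knockdown cells (-0.95, SE 0.0385, adjusted p = 1.12e-17), and Esrrg at 126 ± 9.34 and 69.6 ± 4.68 (-0.86, SE 0.0528, adjusted p = 9.9e-14). With stretch they gave -0.91 and -0.73. Their coactivator genes Ppargc1a (-0.81 in both) and Ppargc1b (-0.92 and -0.82) fell as well, and both were singled out after their values were seen.

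Promoters were read because most nuclear members moved together. RefSeq promoters (GRCm38.p6), 250 bases before to 50 after the start of the gene, were at hand for 74 of 91 nuclear members and searched on both strands for 4 motifs. The motif of nuclear respiratory factor 1 (NRF-1), GCGCANGCG, was in 21 promoters (28.4%) against 12.8% of 10469 other tested genes. The motif of estrogen-related receptors, AAGGTCA, was in 8 (10.8%) against 3.18%, that of YY1, AAGATGGCG, in 7 (9.46%) against 2.93%, and that of GABP, CCGGAAGT, in 5 (6.76%) against 7.65%. No promoter held 2 of these motifs with bases in common. Between the 53 matched members that fell without stretch and the 20 tested ones that did not, the NRF-1 motif was in 30.2% and 25%, the estrogen-related receptor motif in 11.3% and 10%, the YY1 motif in 9.43% and 10%, and the GABP motif in 9.43% and 0%. A match is a description of these letters and not a bound site.

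The 250 bases before the start are printed for 4 members that fell as examples, with the motif in capitals; promoters with YY1 matches, or with NRF-1 and GABP matches together, are not shown. Atp5l, a small membrane subunit of complex V (log2 fold change -0.37, chr9:44920743-44920992, minus strand), holds NRF-1 and estrogen-related receptor matches. Sdha (chr13:74350241-74350490, minus strand) holds 3 NRF-1 matches. Uqcrh (chr4:116075071-116075320, minus strand) holds a GABP match, and Cox7a1 (chr7:30183921-30184170, plus strand) holds none of these letters.
Atp5l: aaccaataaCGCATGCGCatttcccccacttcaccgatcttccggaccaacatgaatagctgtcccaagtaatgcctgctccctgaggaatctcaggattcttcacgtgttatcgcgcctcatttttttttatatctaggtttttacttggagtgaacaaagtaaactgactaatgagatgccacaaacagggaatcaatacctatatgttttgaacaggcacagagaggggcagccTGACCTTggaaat
Sdha: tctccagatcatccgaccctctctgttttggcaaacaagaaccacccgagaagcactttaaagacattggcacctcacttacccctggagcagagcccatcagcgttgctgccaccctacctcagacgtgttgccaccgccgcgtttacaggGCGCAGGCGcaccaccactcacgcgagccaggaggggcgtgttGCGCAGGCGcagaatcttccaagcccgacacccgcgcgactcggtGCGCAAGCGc
Uqcrh: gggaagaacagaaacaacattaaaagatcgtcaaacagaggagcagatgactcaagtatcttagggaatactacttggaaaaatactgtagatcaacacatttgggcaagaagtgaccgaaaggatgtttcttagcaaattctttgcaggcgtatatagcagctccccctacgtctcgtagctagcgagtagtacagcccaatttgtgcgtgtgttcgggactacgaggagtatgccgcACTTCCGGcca
Cox7a1: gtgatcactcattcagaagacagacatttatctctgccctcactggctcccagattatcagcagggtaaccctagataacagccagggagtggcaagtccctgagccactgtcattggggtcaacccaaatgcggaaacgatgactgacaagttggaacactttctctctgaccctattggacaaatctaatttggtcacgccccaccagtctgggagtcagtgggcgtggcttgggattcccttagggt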

How the data were processed

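Poly(A) RNA of 24 HL-1 libraries was sequenced. Per the submitters' processing notes, the build was GRCm38.p6 and the tools were kallisto 0.44.0 and, in R 3.4.4, DESeq2 1.18.1. The authors deposited estimated counts for protein-coding genes (36.6% of values whole within 1e-09) and a normalized signal, used only as an alternative scaling. No library pair was identical and 0 sample columns were left unused.

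Estimated counts were rounded and fitted with edgeR 4.0.16 in R 4.3.3. filterByExpr (minimum count 10, minimum total 15) chose the genes, TMM scaled the libraries, and the robust quasi-likelihood fit took all 24 libraries with the 4 group means as its terms (20 residual degrees of freedom). Benjamini-Hochberg adjustment covered 14411 genes, with a threshold of 0.05. Total counts of 23.6 to 54.8 M set the depth. Intervals are 95% and cover the spread between libraries only. Positions and lengths came from GENCODE on GRCm38, known for 94.5% of tested genes. The steps were tested on simulated data.

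The naming rule took all mt- genes, up to 10 rises and 10 falls per comparison by size of change at an average log2 CPM of at least 1, isoform pairs, complex II, the 3 highest and 3 lowest nuclear members per length, the 2 smallest adjusted p per list and, where fewer than 3 passed, the smallest p. Members and lists were chosen with earlier results of these data known.

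Alternatives were relative log expression factors, the authors' factors, scaling without mt- genes, library totals (added after seeing the data), no filter, a minimum count of 50, only the groups compared, the replicate block, the code letter as a block, length and GC trends removed, limma-voom (limma 3.58.1), DESeq2 1.42.0 and leaving out each library. Some genes that the rule names are not reported here.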

Additional observations from a re-analysis of the deposited data

Results flagged for a closer look

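A library was picked out where its gap to the nearest other library of its group exceeded Dixon's 95% limit for 6 libraries. Of 128 groups of values looked at (32 quantities in 4 groups), 37 held such a library, where chance gives about 1 in 20 for independent values. These quantities share genes and libraries. The cause of each was not tested.

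Stretched control replicate 5 accounted for 22 of the 37, and it was the lowest library in each. Its mitochondrial sum was 13986 CPM against 31131 to 34163 in the other 5, its nuclear sum 11431 against 14583 to 15205, and its ratio 1.22 against 2.07 to 2.34. Nuclear genes summed to 2891 CPM in complex I, 605 in complex II, 865 in complex III, 2651 in complex IV and 4418 in complex V, against lowest values of 3801, 679, 1152, 3623 and 5329 in the others. Mitochondrial genes summed to 4700 CPM in complex I, 2171 in complex III (mt-Cytb alone), 6498 in complex IV and 617 in complex V, against at least 11509, 4201, 12809 and 2612. Among single genes it held Sdhb at 131, Sdhd at 133, Uqcrh at 124, Uqcrq at 80.6, Cox4i1 at 454, Cox8a at 374, Cox7a1 at 7.52, Ndufs1 at 177 and mt-Co1 at 5585 CPM. Its total of 23.6 M counts was the lowest of the study, and cytosolic ribosomal protein and histone genes stood apart in it as well.

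Unstretched knockdown replicate 4 was the highest library of its group. Its mitochondrial sum was 36029 CPM against 23877 to 26557 in the other 5. By complex this was 14142 in complex I, 4225 in complex III (mt-Cytb alone), 14018 in complex IV and 3644 in complex V. Of single genes, mt-Co1 was at 11910, mt-Atp8 at 458, Ndufs1 at 172 and Sdhd at 126 CPM. All 13 mitochondrial members were highest in this library, as were 63 of 89 nuclear members, beside 29.6% of all tested genes. Cytosolic ribosomal protein genes were highest in it in 71 of 78 cases and replication-dependent histone genes in 24 of 30. The difference was thus not limited to mitochondrial members.

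The remaining values came from other libraries. Unstretched control replicate 4 was high in nuclear complex V genes (5618 against 5298 to 5401 CPM) and in Sdhb (170 against 158 to 161). Unstretched control replicate 3 was low in Cox7a1 (9.69 against 11.1 to 11.5), stretched knockdown replicate 6 low in Ndufaf6 (7.9 against 9.02 to 9.62), and stretched knockdown replicate 1 high in Trim63 (83.5 against 60 to 68).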

How the results depend on the processing

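The counts of members that passed under knockdown stayed within 1.5 times of 66 without stretch (55 to 78 over other tools, scalings and filters, 58 to 73 leaving out a library) and of 63 with stretch (53 to 70, and 57 to 89, the 89 without stretched control replicate 5 and at most 65 otherwise). The interaction count was 0 under each alternative run. Stretch in control cells gave 1 member, and 0 with relative log expression factors, the authors' factors, scaling without mt- genes, library totals only, no filter, the stricter filter, only the groups compared or the replicate block, and 0 to 1 leaving out a library. Stretch in knockdown cells gave 0, but 1 with library totals only, the replicate block or DESeq2, 3 with only the groups compared or with length and GC removed, and 0 to 5 leaving out a library (5 without stretched control replicate 5). The cause of these moves was not tested. With the median of log2 CPM over nuclear members in place of the difference of summed log2 levels (-0.33 without and -0.30 with stretch), the values were -0.20 and -0.19. With the replicate block, 67 members passed without and 62 with stretch. Same-numbered libraries correlated at -0.064 to 0.137, and not every library correlated best with its own number, so the numbers were not taken to pair the libraries. Of 45 named results past the threshold, 0 to 2 lost it and 0 turned direction under the 12 other tools, scalings, filters and blocks or without stretched control replicate 5. Leaving out other libraries was read for 0 to 22 of them. Mitochondrial members had wide errors between libraries, and lowly expressed isoforms rest on few counts.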
